A study of Mus musculus with 20 samples.

Results

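The 10 genes described here, Lpl, Gpihbp1, Angptl4, Vldlr, Cd36, Slc27a1, Fabp3, Fabp4, Fabp5 and Acsl1, encode the steps that release fatty acids from blood lipoproteins, move them into the fat cell, carry them through its cytosol and activate them. They were chosen by name, with earlier results of these data known. All 10 are among the 25219 genes of the deposited table, and all 10 passed the filter on low counts in every comparison. RNA was sequenced from inguinal white adipose tissue (iWAT) and brown adipose tissue (BAT) of male mice on a mixed C57Bl/6 background, with 5 libraries of each genotype from each tissue. Ai-α4KO mice carried floxed alleles of Igbp1, the gene of α4, and an Adiponectin-CreERT2 transgene, whose promoter is active in mature adipocytes and not in the vessels or immune cells of the tissue. Control mice carried the floxed alleles without the transgene, although the labels call them wild type. Both genotypes received tamoxifen in 5 injections over 6 days from 2 months of age, and RNA was taken 1 week after recombination. The labels do not say whether the same mice gave both tissues or whether an animal gave more than 1 library, so the p-values measure the spread between libraries.

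In fed tissue, triglyceride reaches the fat cell inside chylomicrons and very low density lipoproteins. Lipoprotein lipase, made by the adipocyte, is carried to the capillary lumen and held there by GPIHBP1 of the endothelial cell, while ANGPTL4 inactivates the enzyme and the VLDL receptor binds the particles. The fatty acids released are taken up with the help of CD36 and the transport protein FATP1 (Slc27a1), are bound in the cytosol by the fatty acid binding proteins, and are trapped as acyl-CoA by long-chain acyl-CoA synthetases such as ACSL1. In white fat the acyl-CoA is mainly stored as triglyceride, and in brown fat much of it is burned for heat. Fabp4 is a marker of adipocytes, Fabp3 is best known from heart, skeletal muscle and brown fat, and many genes of this route are known targets of PPARγ.

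Promoter sequence from RefSeq (GRCm38.p6) was matched for 5 of the 10 genes, namely Cd36, Slc27a1, Fabp3, Vldlr and Acsl1, at 9 transcription starts. The 250 bases before each start were searched on both strands for 6 motifs. The nuclear receptor element AGGTCA was in 1 of the 9 windows, that of Cd36, against 14% of the 32851 windows of the same length in the reference. The DR1 element, the pair of such elements with 1 base between them that PPARγ with RXR is known to bind, was searched in its perfect form AGGTCANAGGTCA, which contains the single element. It was in 0 of the 9 windows and in 0.0335% of all windows. The GC box GGGCGG was in 5 of the 9, against 32.7% of all, and the E-box CACGTG was in 1, that of Slc27a1, against 6.02%. The C/EBP core TTGCNNAA was in 1, upstream of Vldlr, against 9.56%, and TATAAA was in none, against 12.4%. A match describes letters in the window and was not measured as a bound site. The windows below are shown because Slc27a1 and Acsl1 fell in both tissues, Cd36 held the nuclear receptor element, and Fabp3 is the gene that differed most between the tissues. Slc27a1 and Acsl1 had more than 1 window each, and the one shown holds the most motif matches of that gene. For both genes another window held none of the 6 motifs. The Cd36 and Slc27a1 windows shown lie inside the deposited span of the gene. Capitals mark the motif matches.
Cd36, chr5:17835897-17836146, minus strand, with 1 nuclear receptor element read as TGACCT and 2 GC boxes: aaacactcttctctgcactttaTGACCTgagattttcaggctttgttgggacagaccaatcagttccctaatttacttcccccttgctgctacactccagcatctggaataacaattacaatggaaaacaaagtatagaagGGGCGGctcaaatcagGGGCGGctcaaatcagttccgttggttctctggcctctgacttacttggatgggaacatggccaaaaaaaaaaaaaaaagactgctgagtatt
Slc27a1, chr8:71570344-71570593, plus strand, with 1 E-box and 3 GC boxes: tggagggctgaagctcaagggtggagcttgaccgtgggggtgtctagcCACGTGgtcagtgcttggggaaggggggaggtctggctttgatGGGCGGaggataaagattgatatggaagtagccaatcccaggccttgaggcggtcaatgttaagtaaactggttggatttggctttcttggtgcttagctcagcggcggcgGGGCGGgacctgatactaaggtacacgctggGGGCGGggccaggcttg
Acsl1, chr8:46470787-46471036, plus strand, with 4 GC boxes, ending at the base before the deposited gene start: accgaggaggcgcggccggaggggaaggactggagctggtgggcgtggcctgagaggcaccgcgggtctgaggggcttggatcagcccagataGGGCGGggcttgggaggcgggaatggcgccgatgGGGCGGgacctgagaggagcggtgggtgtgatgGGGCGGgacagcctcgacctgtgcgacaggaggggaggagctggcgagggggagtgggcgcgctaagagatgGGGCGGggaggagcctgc
Fabp3, chr4:130308488-130308737, plus strand, with none of the 6 motifs: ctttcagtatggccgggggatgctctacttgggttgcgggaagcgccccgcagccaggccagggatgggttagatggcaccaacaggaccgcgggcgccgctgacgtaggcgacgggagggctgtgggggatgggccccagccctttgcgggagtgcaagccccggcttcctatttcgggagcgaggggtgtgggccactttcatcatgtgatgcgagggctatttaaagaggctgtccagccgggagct

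Library totals ran from 24023371 to 50384446 counts. Levels of a gene are in CPM, which sets each count against its TMM-adjusted library total (factors over the 20 libraries), and in FPKM where genes are compared with each other. Igbp1 was at 57.5 to 76.6 CPM in Control and 10.1 to 11.1 in Ai-α4KO iWAT, and at 85.4 to 105 and 13.7 to 25.2 CPM in BAT. The summed CPM of 10 adipocyte markers (Adipoq, Plin1, Cidec and others, no gene of the 10 among them) was 21719 to 36633 in Control and 4257 to 9471 in Ai-α4KO iWAT, and 16208 to 21119 and 3386 to 6871 in BAT, with no marker at 0 in any library. The 10 macrophage markers summed to 949 to 1858 CPM in Control and 6044 to 7983 in Ai-α4KO iWAT, and to 213 to 470.1 and 3882 to 5946 in BAT. For 5 neutrophil markers the sums were 19.2 to 88.4 and 145 to 480 CPM in iWAT, and 11.8 to 35.1 and 199 to 358 in BAT. For 6 fibroblast markers they were 1804 to 3304 and 1542 to 3843 CPM in iWAT, and 694 to 1160 and 1462 to 1955 in BAT. The 5 brown adipocyte markers summed to 7895 to 12144 CPM in Control and 1498 to 3223 in Ai-α4KO BAT, and to 126 to 938 and 17.0 to 42.4 in iWAT. Of these 5, only 2 were called lower in BAT, by the call defined below, and 4 in iWAT, with 0 higher in either. Skeletal muscle markers were high in 2 iWAT libraries, Control 4 (7897 CPM) and Ai-α4KO 1 (5876 CPM), against 24.5 to 224 in the others, and were higher in every Ai-α4KO BAT library (14578 to 50154) than in every Control BAT library (1107 to 10324). Muscle content and genotype thus cannot be told apart in BAT. This limits each BAT fit below with the muscle marker score as a covariate. B cell markers were high in Control iWAT 1 and 4.

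Per transcript length, Fabp4 stood far above the other 9 genes in every group. Its mean FPKM was 23844 ± 3779 in Control iWAT, 15851 ± 2155 in Ai-α4KO iWAT, 19111 ± 1291 in Control BAT and 17325 ± 1401 in Ai-α4KO BAT (SD, n = 5 each), in place 1 among all genes of the table in each group. In Control iWAT Lpl followed at 2604 ± 645 FPKM, in place 5 among all genes, then Cd36 at 848 ± 111 and Acsl1 at 604 ± 63.9 FPKM. Acsl1 and Fabp5 (543 ± 83.1 FPKM) overlapped. Angptl4 (208 ± 123 FPKM) overlapped with Slc27a1 (177 ± 30.5 FPKM), and Slc27a1 with Gpihbp1 (161 ± 33.97 FPKM), which lay apart from the genes below it. Vldlr (15.7 ± 3.32 FPKM) and Fabp3 (4.58 ± 7.07 FPKM) closed it and overlapped. In Control BAT Lpl (1040 ± 219 FPKM), Cd36 (857 ± 98.7) and Fabp3 (778 ± 249) overlapped as neighbours in places 2 to 4, and Slc27a1 (44.6 ± 15.6) and Vldlr (30.3 ± 4.997 FPKM) were last. In Ai-α4KO BAT Fabp3 was second at 911 ± 438 FPKM, overlapping with Lpl at 811 ± 166 FPKM. The 10 genes together held 3.16% to 4.19% of all counts of a Control iWAT library and 1.84% to 2.68% of an Ai-α4KO iWAT library. In BAT they held 2.49% to 2.78% in Control and 1.89% to 2.31% in Ai-α4KO.

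**Figure D1:**
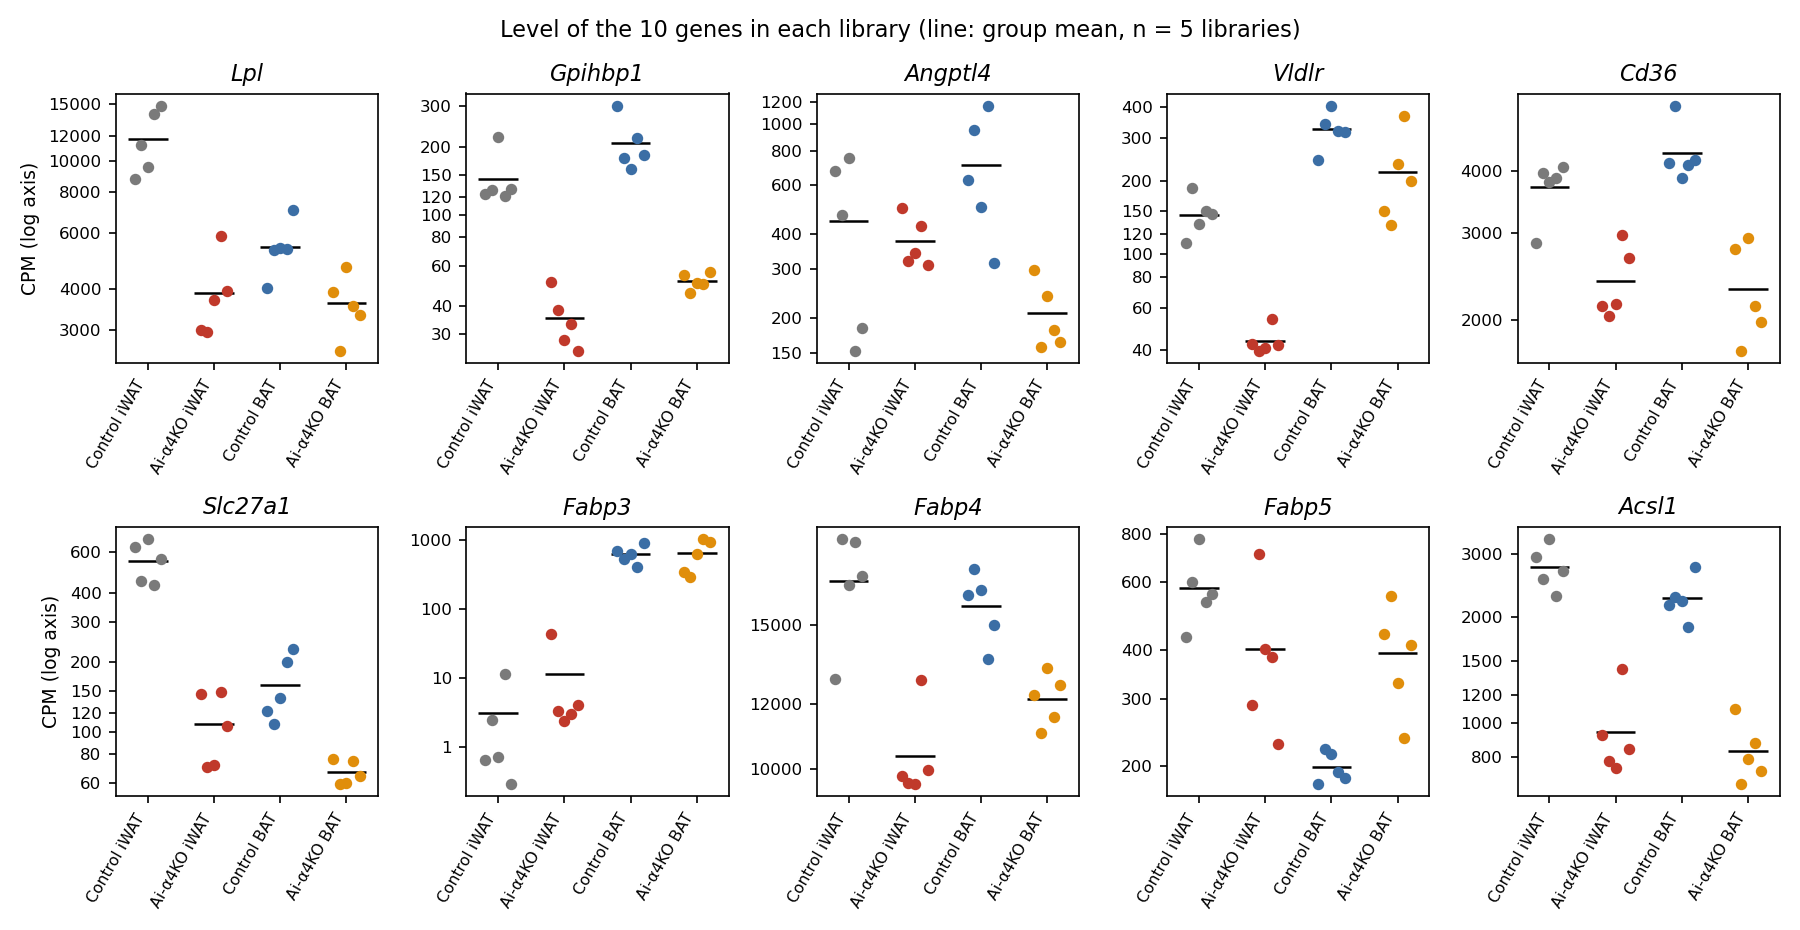
Level of each of the 10 genes in CPM (log axis, its own scale in each panel) in every library of the 4 groups, with a line at the group mean (n = 5 libraries). Gpihbp1, Slc27a1 and Acsl1 are lower in every Ai-α4KO library than in every Control library of the same tissue, Fabp5 is higher in every Ai-α4KO BAT library than in every Control BAT library, and Fabp3 lies at 0.293 to 44.1 CPM in iWAT and at 299 to 1040.2 CPM in BAT.

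Loss of α4 in adipocytes was compared with Control within each tissue. In Ai-α4KO iWAT Lpl, Gpihbp1, Vldlr, Slc27a1 and Acsl1 fell by 2.94-fold to 5.11-fold, and in Ai-α4KO BAT Gpihbp1, Angptl4, Slc27a1 and Acsl1 fell by 2.46-fold to 4.16-fold. Gpihbp1, Slc27a1 and Acsl1 thus fell in both tissues, and no gene of the 10 rose by the call in either. A call needed 2-fold or more together with an adjusted p (edgeR, quasi-likelihood) under 0.01. In iWAT 5 of the 10 were called lower, against 10.7% of the 14604 genes tested, and 0 higher, against 11.3%. At any fold 7 of 10 were lower, Cd36 and Fabp4 being added, against 18.8% of all genes. In BAT 4 of the 10 were called lower, against 13.3% of the 14344 genes tested, and 0 higher, against 18.2%. At any fold 5 of 10 were lower in BAT, Cd36 being added, against 24.8%, and 1 was higher, Fabp5, against 25.0%. DESeq2 called 5 lower and 0 higher in iWAT, against 12.3% and 11.5% of all genes, and 4 lower and 0 higher in BAT, against 13% and 19.6%. At an unadjusted edgeR p under 0.05 there were 7 lower and 0 higher in iWAT, against 28.8% and 30.9% of all genes, and 8 lower and 1 higher in BAT, against 34% and 32.8%. The ranges of the genotypes were apart for 6 of the 10 genes in iWAT, against 39% of all genes, and for 7 of the 10 in BAT, against 47.6%. The median log2 fold change of the 10 was -1.14 in iWAT and -0.78 in BAT, beside 0.01 and -0.03 over all genes tested. In these bulk samples fewer adipocytes and less RNA per adipocyte cannot be told apart, and the adipocyte markers given above moved with the genotype in both tissues.

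**Figure D2:**
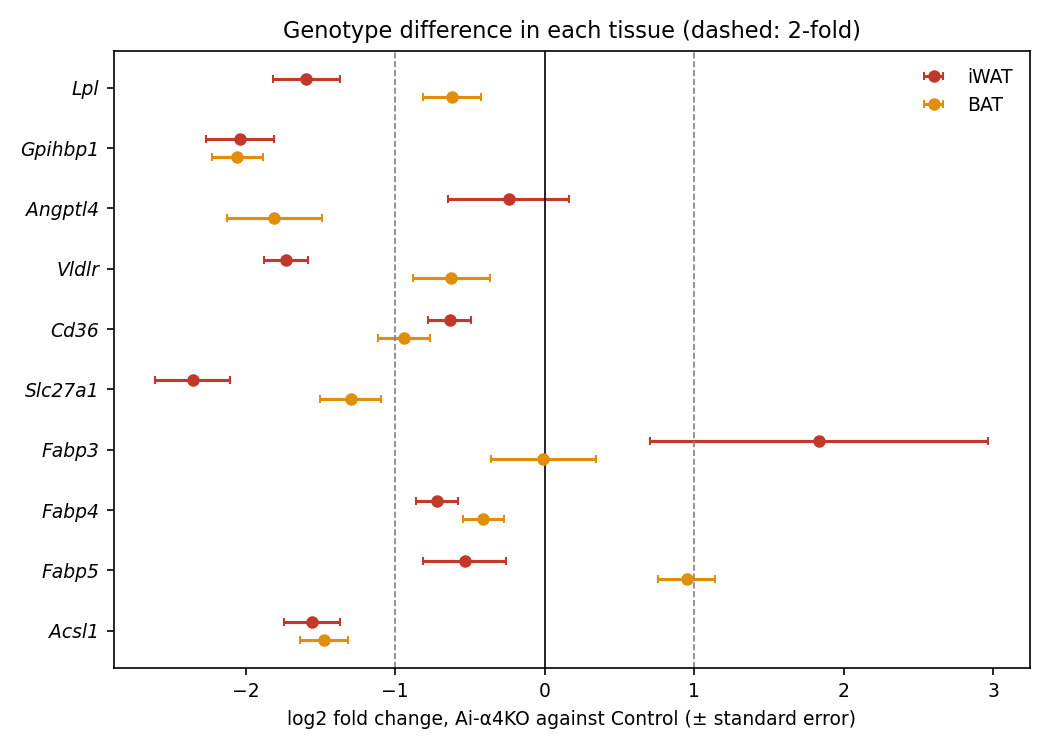
Log2 fold change of each gene in Ai-α4KO against Control (x axis, points with standard errors, n = 5 libraries a group) in iWAT and BAT, with dashed lines at a 2-fold change. Slc27a1 (-2.35) and Gpihbp1 (-2.04) lie farthest to the left in iWAT and Gpihbp1 (-2.06) in BAT, and Fabp5 lies at -0.54 in iWAT and 0.95 in BAT.

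Lpl (chr8:68880555-68906932, plus strand) encodes lipoprotein lipase, which hydrolyses lipoprotein triglyceride. In iWAT its CPM was 8811, 11206, 9576, 14029 and 14843 in the Control libraries and 2991, 2949, 3719, 5854 and 3955 in the Ai-α4KO libraries. The genotypes did not overlap, all Ai-α4KO libraries being the lower ones, with a log2 fold change of -1.59 (standard error 0.22, edgeR adjusted p = 0.000129). In BAT the CPM was 4039, 5299, 5389, 5328 and 7031 in Control and 3918, 2582, 4698, 3554 and 3331 in Ai-α4KO. These groups overlapped, since Control library 1 was below Ai-α4KO library 3, and the log2 difference of -0.62 (standard error 0.19, edgeR adjusted p = 0.014) did not pass the test. The Lpl difference ranged from -0.99 to -0.36 in BAT over the alternatives.

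Gpihbp1 (chr15:75596658-75598213, plus strand) encodes the capillary protein that carries and anchors the lipase. Its CPM in iWAT was 124, 128, 219, 122 and 129.7 in Control and 51.0, 38.1, 28.3, 33.4 and 25.4 in Ai-α4KO. Control library 3 stood above its group, and no libraries of the groups overlapped. The log2 fold change was -2.04 (standard error 0.23, edgeR adjusted p = 2.95e-05). The BAT libraries had 302, 179, 159, 218 and 183 CPM in Control and 54.7, 45.4, 50.1, 49.95 and 56.2 in Ai-α4KO, again without overlap. Gpihbp1 fell there by 4.16-fold (log2 -2.06, standard error 0.17, edgeR adjusted p = 9.15e-07), the largest change of the 10 genes in BAT. Of 11 endothelial markers, 5 were called lower in iWAT and 9 in BAT. Their summed CPM was 533 to 719 in Control and 289 to 357 in Ai-α4KO iWAT, and 967 to 1474 and 403 to 525 in BAT, with no marker at 0. With the library factors set so that the mean log2 count of these markers was equal in all libraries, Gpihbp1 was lower by 1.003 on the log2 scale in iWAT (standard error 0.17, edgeR adjusted p = 0.000144), where 2.07% of all genes were called lower. In BAT it was lower by 0.59 (standard error 0.17, edgeR adjusted p = 0.0051), short of the 2-fold limit, and 1.19% of all genes were called lower. The iWAT value lies at the limit: it fell short of 2-fold without Control library 3 or 5 or Ai-α4KO library 3, 4 or 5, at -0.98 to -0.90. With Pecam1, Cdh5 and Emcn alone as the endothelial reference, Gpihbp1 was at -1.34 in iWAT and -0.94 in BAT. The 11 markers did not move alike in iWAT. They ran from -2.18 (Cldn5) to -0.36 (Emcn), and Gpihbp1 at -2.04 lay inside that spread. Of the 3 used alone, Pecam1 (-0.54) and Emcn fell less there than Cdh5 (-1.18).

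Angptl4 (chr17:33774900-33781575, minus strand) encodes an inhibitor of lipoprotein lipase that is induced by fasting and by PPAR agonists. Its Control libraries were widely spread in iWAT, at 673, 469, 755, 152 and 184 CPM, and the Ai-α4KO libraries lay among them at 496, 319.5, 342, 428 and 309.9 CPM. The log2 difference in iWAT was -0.24 (standard error 0.41, edgeR adjusted p = 0.641), and its sign turned with limma on FPKM and with the replicate number as a block. The BAT libraries stood at 626, 951, 502, 1159 and 316 CPM in Control and 298, 157, 239, 181 and 164 in Ai-α4KO, where the groups did not overlap although Control library 5 came close. Angptl4 fell in BAT by 3.50-fold (log2 -1.81, standard error 0.32, edgeR adjusted p = 0.000388). With the skeletal muscle marker score as a covariate this BAT value was -1.71 (edgeR adjusted p = 0.0148) and no longer called. The difference of its genotype effects between the tissues was -1.54 (standard error 0.56, edgeR adjusted p = 0.0669), which did not pass the test.

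Vldlr (chr19:27217020-27254231, plus strand) encodes the VLDL receptor, which binds triglyceride-rich particles next to the lipase and is known from muscle and heart as well as fat. In iWAT its CPM was 110.3, 187, 132, 149.9 and 146 in Control and 42.3, 39.9, 40.99, 54.0 and 42.1 in Ai-α4KO. The Ai-α4KO libraries were tightly grouped and all below Control, and Vldlr fell by 3.32-fold (log2 -1.73, standard error 0.15, edgeR adjusted p = 5.63e-06). BAT gave 243, 341, 406, 321 and 317 CPM in Control and 149, 132, 233, 369 and 199 in Ai-α4KO. Ai-α4KO library 4 stood inside the Control range and the other 4 libraries below it, and the log2 difference of -0.62 (standard error 0.26, edgeR adjusted p = 0.0492) did not pass the test. That library 4 also had the highest skeletal muscle marker sum of all, 50154 CPM. With the skeletal muscle marker score as a covariate, Vldlr was lower in BAT by 1.38 on the log2 scale (standard error 0.31, edgeR adjusted p = 0.00409) and passed the call. In BAT those markers separate the genotypes, so this fit cannot tell muscle content from genotype.

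Cd36 (chr5:17781690-17888959, minus strand) encodes the fatty acid translocase of the plasma membrane, present in adipocytes, endothelium and macrophages. Its CPM in iWAT was 2861, 3962, 3788, 3867 and 4076 in Control and 2137, 2043, 2162, 2977 and 2671 in Ai-α4KO. Control library 1 was the only one of its group inside the Ai-α4KO range, and it also carried the highest B cell marker sum. The log2 difference was -0.64 (standard error 0.14, edgeR adjusted p = 0.00311), which is 1.55-fold and short of the limit. The edgeR adjusted p was 0.0183 without the 2 libraries rich in skeletal muscle markers. The iWAT difference was -0.80 (edgeR adjusted p = 0.00271) without the 2 Control libraries richest in B cell markers. With the B cell marker score as a covariate it was -0.72 (edgeR adjusted p = 0.00276). For BAT the values were 4151, 5404, 3869, 4102 and 4198 CPM in Control and 2786, 1738, 2934, 2137 and 1985 in Ai-α4KO, without overlap. The BAT difference of -0.94 (standard error 0.17, edgeR adjusted p = 0.000484) was 1.92-fold. It passed 2-fold in 3 of 21 alternatives, at -1.02 with the skeletal muscle marker score as a covariate, -1.01 without Ai-α4KO library 1 and -1.05 without Ai-α4KO library 3. Macrophage markers, which rose with the genotype as given above, moved beside Cd36, and their part in its level was not tested.

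Slc27a1 (chr8:71568927-71586708, plus strand) encodes FATP1, a membrane protein of fatty acid uptake with acyl-CoA synthetase activity. In iWAT its CPM was 633, 449, 683, 433 and 562 in Control and 146, 70.1, 72.1, 149 and 106 in Ai-α4KO. All Ai-α4KO libraries were far below Control, and Slc27a1 fell by 5.11-fold (log2 -2.35, standard error 0.25, edgeR adjusted p = 2.08e-05), the largest change of the 10 genes in iWAT. In BAT its CPM was 123, 108, 140.4, 199.6 and 227 in Control and 76.0, 59.2, 59.8, 74.7 and 64.5 in Ai-α4KO. The groups did not overlap there either, and it fell by 2.46-fold (log2 -1.30, standard error 0.20, edgeR adjusted p = 0.000153). Under limma on log2 FPKM the BAT difference was -0.94 or -0.97, short of 2-fold.

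Acsl1 (chr8:46471037-46536051, plus strand) encodes the main long-chain acyl-CoA synthetase of fat, which activates fatty acids for storage or oxidation. In iWAT its CPM was 2954, 2557, 3312, 2290.0 and 2694 in Control and 926, 781, 746, 1421 and 842 in Ai-α4KO. Ai-α4KO library 4 was the highest of its group and still below every Control library. Acsl1 fell by 2.94-fold (log2 -1.56, standard error 0.19, edgeR adjusted p = 4.82e-05). In BAT its CPM was 2157, 2273, 2214, 1866 and 2760.0 in Control and 1094, 670.2, 792, 877 and 729 in Ai-α4KO, without overlap and with a fall of 2.78-fold (log2 -1.48, standard error 0.16, edgeR adjusted p = 8.24e-06). Of the 10 genes, Acsl1 changed by the most similar amount in both tissues after Gpihbp1, and the difference of its effects was 0.11 (standard error 0.25, edgeR adjusted p = 0.787). With 1 library left out that difference ran from 0.038 to 0.40, and that of Cd36 from -0.32 to -0.08. The order of these genes is thus not firm.

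The 3 fatty acid binding proteins did not pass the edgeR call in either tissue. Fabp4 (chr3:10204343-10208576, minus strand), the adipocyte form, was at 12898, 19111, 16813, 18980.5 and 17252 CPM in Control iWAT and at 9819, 9633, 9588, 12843 and 9970.5 in Ai-α4KO iWAT. The groups were separated only by the narrow gap between Control library 1 and Ai-α4KO library 4. The log2 difference was -0.72 (standard error 0.14, edgeR adjusted p = 0.0013), which is 1.65-fold. It was -0.58 under limma on log2(FPKM + 1), with an adjusted p of 0.187. In BAT Fabp4 was at 16335, 17581, 16547, 13649.9 and 14990.4 CPM in Control and 12313, 11072, 13317, 11587 and 12666 in Ai-α4KO, without overlap. The BAT difference was -0.41 (standard error 0.14, edgeR adjusted p = 0.0194), which did not pass the test. It was -0.14 under limma on log2(FPKM + 1), with an adjusted p of 0.652, and -0.15 with library size in place of TMM factors. DESeq2 gave -0.37 with an adjusted p of 0.000847, short of 2-fold. The adipocyte markers had median log2 differences of -1.91 in iWAT and -2.12 in BAT, below that of Fabp4 in both tissues, although the marker Retn was at 0.53 in BAT. The macrophage markers rose with the genotype in both tissues, as given above, and their part in the Fabp4 level was not tested.

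Fabp5 (chr3:10012585-10016610, plus strand), the epidermal form, is also made by macrophages and endothelium. The CPM in BAT was 180.0, 221, 216, 193 and 187 in Control and 442, 552, 329, 238 and 412 in Ai-α4KO. Every Ai-α4KO library was above every Control library, and the log2 difference was 0.95 (standard error 0.19, edgeR adjusted p = 0.00106), which is 1.93-fold and just short of the call. Over the alternatives it ran from 0.80 to 1.24, and it passed 2-fold in 7 of 21, among them limma on log2 FPKM (1.16) and the fit with the skeletal muscle marker score (1.13). Without Ai-α4KO library 3 it was 1.001 and without Ai-α4KO library 4 it was 1.14. In iWAT its CPM was 434, 602, 776, 535 and 559 in Control and 288, 709, 402, 385 and 228 in Ai-α4KO, where library 2 stood inside the Control range and the other 4 below it. The iWAT difference was -0.54 (standard error 0.28, edgeR adjusted p = 0.122), which did not pass the test. It ran from -0.84 without Ai-α4KO library 2 (edgeR adjusted p = 0.00775, short of 2-fold) to -0.38 without Ai-α4KO library 5 (0.244). All 10 macrophage markers rose in BAT and 7 of 10 in iWAT (medians of 3.95 and 1.81 on the log2 scale), and their part in the Fabp5 difference was not tested.

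Fabp3 (chr4:130308778-130315463, plus strand), the heart form, was at 0.657, 2.49, 0.714, 11.7 and 0.293 CPM in Control iWAT and at 44.1, 3.35, 2.44, 3.08 and 4.10 in Ai-α4KO iWAT. The highest library of each group, Control 4 and Ai-α4KO 1, was the one with the high skeletal muscle markers. The log2 difference was 1.84 (standard error 1.13, edgeR adjusted p = 0.19), and it was 0.02 without Ai-α4KO library 1 and 3.46 without Control library 4. Without both libraries it was 1.64 (standard error 0.56, edgeR adjusted p = 0.032), again without passing the test. In BAT its CPM was 709, 529.5, 636, 405 and 921 in Control and 344, 299, 638, 1040.2 and 940.1 in Ai-α4KO. The Ai-α4KO libraries spread on both sides of the Control range, and the log2 difference was -0.01 (standard error 0.35, edgeR adjusted p = 0.986). With the skeletal muscle marker score as a covariate it was -0.55 (standard error 0.54, edgeR adjusted p = 0.451). RefSeq annotates a pseudogene for Fabp3 (Fabp3-ps1) and for Fabp5 (Fabp5l2), and how reads shared with them were counted is not given in the sources used here.

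**Figure D3:**
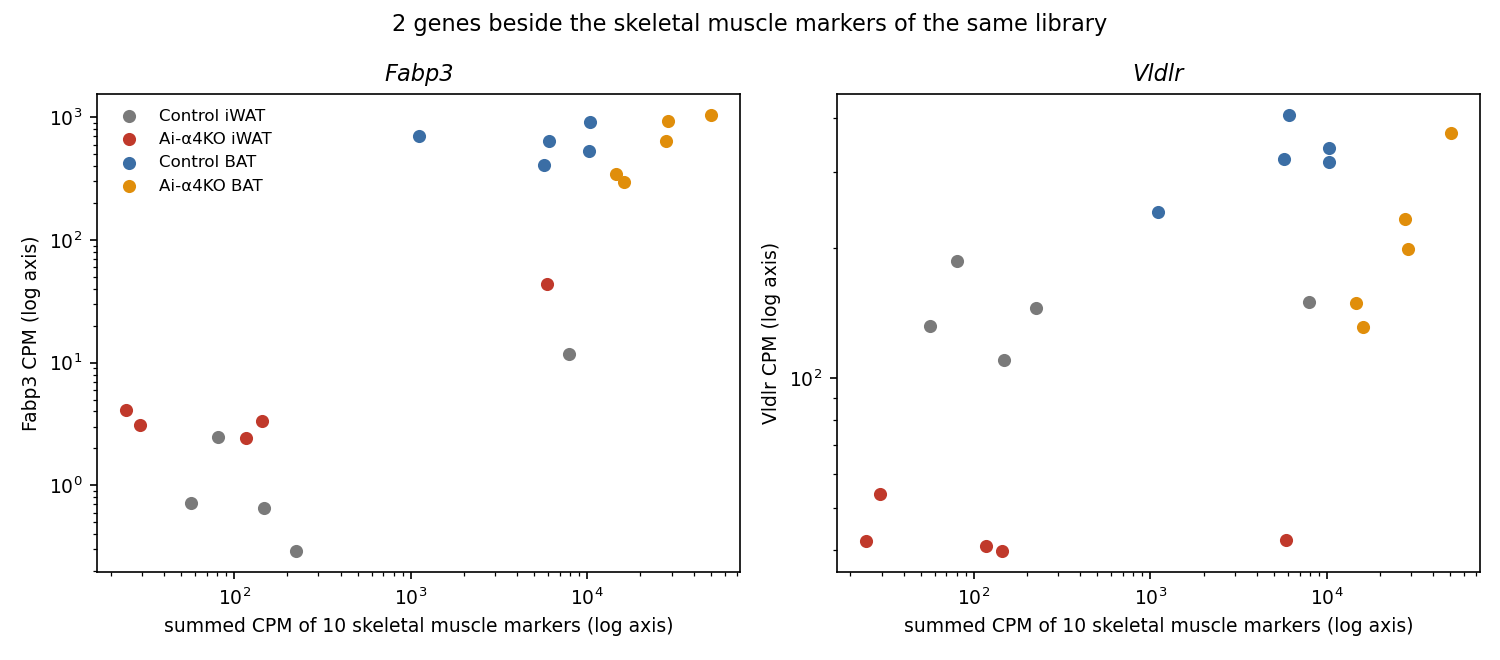
CPM of Fabp3 (left) and Vldlr (right) against the summed CPM of 10 skeletal muscle markers in the same library (log axes, one point a library, colours for the 4 groups). In the left panel the points of Control iWAT 4 (11.7 CPM) and Ai-α4KO iWAT 1 (44.1 CPM) stand apart from the other iWAT libraries on both axes, and in the right panel Ai-α4KO BAT 4 (369 CPM) is highest of its group on both.

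Within the binding proteins, Fabp4 made up nearly all transcripts per length in each group, and the share of Fabp5 was larger in Ai-α4KO than in Control BAT. Of the summed FPKM of Fabp3, Fabp4 and Fabp5, Fabp4 held 97.7% ± 0.43 in Control iWAT, 97.3% ± 1.23 in Ai-α4KO iWAT, 95.3% ± 1.14 in Control BAT and 93.0% ± 1.98 in Ai-α4KO BAT (SD, n = 5 each). Fabp5 held 0.812% ± 0.077 in Control BAT and 2.05% ± 0.737 in Ai-α4KO BAT (SD, n = 5 each), with ranges of 0.705% to 0.916% and 1.25% to 3.16%. In iWAT its shares of 2.26% ± 0.441 and 2.58% ± 1.27 (SD, n = 5 each) overlapped. Fabp3 held 3.87% ± 1.18 in Control BAT and 4.93% ± 2.49 in Ai-α4KO BAT, which overlapped, and at most 0.439% in any iWAT library. These shares are a description and were not tested.

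**Figure D4:**
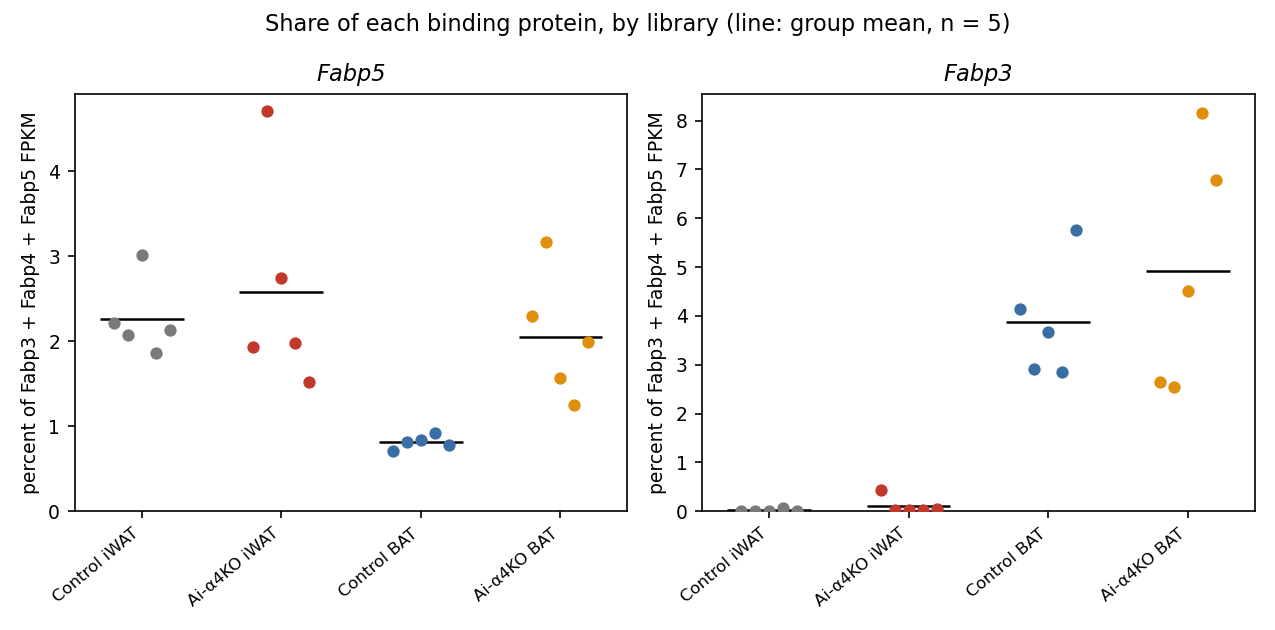
Share of Fabp5 (left) and Fabp3 (right) in the summed FPKM of Fabp3, Fabp4 and Fabp5, in percent, for each library of the 4 groups, with a line at the group mean (n = 5). All Ai-α4KO BAT libraries hold a Fabp5 share of 1.25% or more and all Control BAT libraries one of 0.916% or less.

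Since the adipocyte markers fell, the next comparison was how far each gene moved relative to them. With library factors set so that the mean log2 count of the 10 adipocyte markers was equal in all libraries, no gene of the 10 was called lower, against 0.459% of all genes in iWAT and 0.439% in BAT, and the 3 binding proteins were called higher in both tissues. In iWAT 5 of the 10 were called higher relative to the markers, namely Fabp3 (3.32), Angptl4 (1.77), Fabp5 (1.57), Cd36 (1.42) and Fabp4 (1.31, all log2), and in BAT 5 of the 10, namely Fabp5 (2.87), Fabp3 (2.05), Fabp4 (1.53), Vldlr (1.38) and Lpl (1.32). The background is high on this scale, since 83.2% of all genes were called higher in iWAT and 83.3% in BAT, and the median gene was at 2.06 and 1.92 beside medians of 0.88 and 1.14 for the 10. The genes not called lay between -0.39 and 0.45 in iWAT, for Slc27a1, Gpihbp1 (-0.04), Vldlr (0.30), Lpl (0.44) and Acsl1. In BAT they lay between -0.10 and 0.95, for Gpihbp1, Angptl4 (0.04), Acsl1 (0.43), Slc27a1 (0.67) and Cd36. At an unadjusted p under 0.05 none of the 10 was lower than the markers in either tissue by the edgeR test, the only one run on this scale, against 0.904% of all genes in iWAT and 0.990% in BAT. Cd36 in BAT was called higher without Control library 2 (1.14) or Ai-α4KO library 1 (1.06) or 2 (1.02). Fabp3 in iWAT lost its call without Ai-α4KO library 1 (2.07) and without Control library 3 (3.05).

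**Figure D5:**
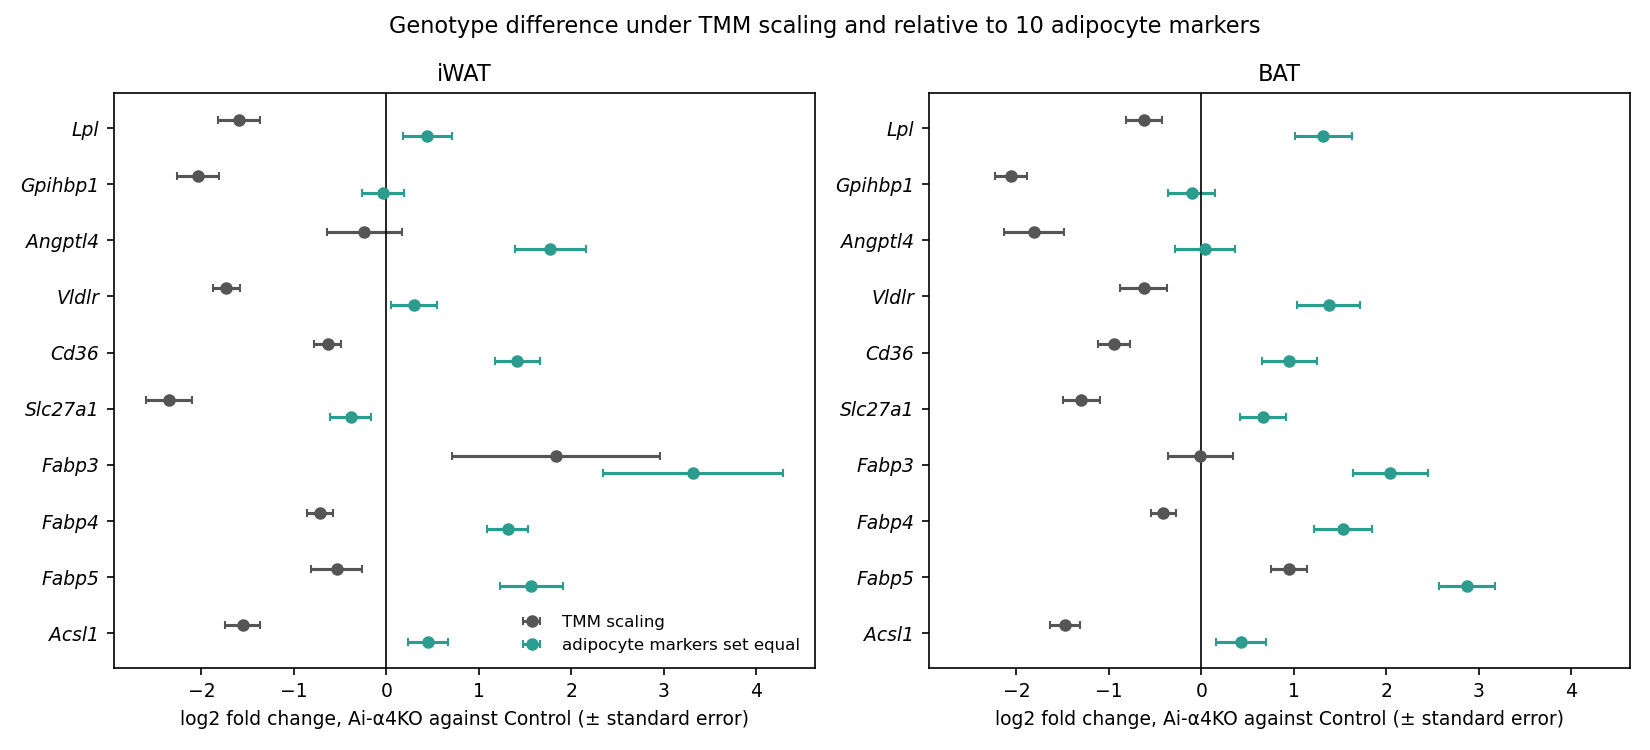
Log2 fold change of each gene in Ai-α4KO against Control (points with standard errors, n = 5 libraries a group) in iWAT and BAT, once under TMM scaling and once with the mean of 10 adipocyte markers set equal in all libraries. The second set of points lies between -0.39 (Slc27a1) and 3.32 (Fabp3) in iWAT and between -0.10 (Gpihbp1) and 2.87 (Fabp5) in BAT.

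The tissues were also compared within each genotype, in a fit of all 20 libraries. In Control mice, Fabp3 and Vldlr were higher in BAT than in iWAT, while Lpl, Fabp5 and Slc27a1 were lower. Fabp3 was 201-fold higher (log2 7.65, standard error 1.13, edgeR adjusted p = 1.59e-05) and Vldlr 2.25-fold higher (log2 1.17, standard error 0.22, edgeR adjusted p = 0.000223). The Fabp3 value rests on very low iWAT levels and was 9.27 without Control iWAT library 4, the one rich in skeletal muscle markers. Slc27a1 was lower by 1.79 on the log2 scale (standard error 0.24), Fabp5 by 1.54 (standard error 0.26) and Lpl by 1.11 (standard error 0.21), with edgeR adjusted p = 4.61e-06, 5.76e-05 and 0.000216. So 2 of the 10 were called higher, against 7.34% of the 15230 genes tested, and 3 lower, against 15.4%, and for these 5 genes the libraries of the tissues did not overlap, against 36.3% of all genes. Vldlr was at 0.94 with library size in place of TMM factors and at 0.91 with limma on log2(FPKM + 1), in both short of 2-fold. Cd36 (0.23), Fabp4 (-0.10), Acsl1 (-0.29), Gpihbp1 (0.53) and Angptl4 (0.67) were not called. In Ai-α4KO mice 2 of the 10 were called higher in BAT, Fabp3 (5.84) and Vldlr (2.30), against 8.54% of all genes, and 0 lower, against 4.09%. Without Ai-α4KO iWAT library 1, also rich in those markers, Fabp3 was at 7.78. By the edgeR test 2 were lower at an unadjusted p under 0.05, Slc27a1 (-0.70) and Angptl4 (-0.87), against 27.1% of all genes, and 3 higher, Gpihbp1 (0.54) with Fabp3 and Vldlr, against 21.7%. DESeq2 called 0 lower, against 4.45% of all genes. Lpl (-0.11) and Fabp5 (-0.03) lay close to 0 there.

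Whether the genotype effect differed between the tissues was tested as an interaction, in which a positive value means a less negative or more positive effect in BAT. Fabp5 passed the test at 1.51 (standard error 0.36, edgeR adjusted p = 0.00916), 1 of the 10 genes against 4.86% of all genes tested. It lies at the limit, since it lost the call in 14 of the 20 fits that left out 1 library, with values of 1.39 to 1.92 and adjusted p of 0.000245 to 0.0195 over all alternatives. The libraries whose omission ended the call were Control iWAT 2 to 5, Ai-α4KO iWAT 3 and 4, all 5 of Control BAT, and Ai-α4KO BAT 1, 2 and 5. Vldlr (1.14, standard error 0.31, adjusted p = 0.0201), Lpl (1.004, standard error 0.29, adjusted p = 0.0277) and Slc27a1 (1.09, standard error 0.33, adjusted p = 0.0304) did not pass by edgeR. DESeq2 called these 3 and Fabp5 higher, against 8.25% of all genes, and 0 lower, against 2.57%, at 1.2 for Vldlr, 1.07 for Lpl and 1.15 for Slc27a1. By edgeR Vldlr passed with library size in place of TMM factors (1.22) and without Ai-α4KO BAT library 1 (1.35) or 2 (1.38), and Lpl without Ai-α4KO iWAT library 4 (1.30). Cd36 (-0.28), Gpihbp1 (0.01), Fabp4 (0.34) and Fabp3 (-1.81, standard error 1.22) did not pass by either tool.

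The wider route was taken from lists of 60 other genes. In iWAT 50 were tested, 15 were called lower and 6 higher, with a median log2 fold change of -0.61, beside 10.7% lower and 11.3% higher over all genes tested. In BAT 51 were tested, 13 were lower and 8 higher, with a median of -0.30, beside 13.3% lower and 18.2% higher over all genes. Among genes of lipase maturation, lipase control and lipoprotein handling, 6 of 15 tested were lower and 1 higher in iWAT, and 6 lower and 2 higher in BAT. The same shares over all genes are the background of these counts, and of those of the lists that follow. Apoc3, an apolipoprotein that inhibits the lipase, was lower at -3.38 in iWAT and -2.14 in BAT. Angptl8, a regulator of the lipase that the table lists as Gm6484, was at -2.46 in iWAT, beside Apoc1 (-1.84) and the proprotein convertase Pcsk6 (-1.66), and these 3 were called lower in BAT too, at -1.97, -1.73 and -1.65. In BAT Apoc2, the cofactor of the lipase, was higher at 3.30 and the proteoglycan Sdc1 at 2.21. Of 6 lipoprotein receptors, Lrp8 (2.19 and 4.42) and Lsr (2.16 and 3.27) were higher in iWAT and BAT, and Sorl1 (-1.71) was lower in iWAT.

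Of the 5 other fatty acid transport proteins, 4 were tested in each tissue. Slc27a2, which encodes FATP2, fell in both, from 255 ± 53.9 to 34.02 ± 12.6 CPM in BAT (SD, n = 5 each, log2 -2.94) and by 5.09 on the log2 scale from a low level in iWAT, while Slc27a3 (1.17) rose in iWAT and Slc27a6 (1.26) in BAT. Of the 7 other binding proteins 2 passed the filter on low counts in each tissue, and neither was called by edgeR. Of the other acyl-CoA synthetases, Acsl4 rose in iWAT (1.07), and in BAT Acsl5 fell (-2.05) and Acsl6 rose (2.34) from 0.823 to 4.31 CPM. The skeletal muscle markers were also higher in Ai-α4KO BAT, as given above, and their part in the Acsl6 difference was not tested. Among 10 membrane and cytosol partners, which include the caveolins and the acyl-CoA binding protein Dbi, Lyn, a Src family kinase known from leukocytes, rose in both tissues (1.99 and 1.71) and Got2 (1.05) in BAT. Of 9 transcription factors and coactivators known for these genes, 7 fell in iWAT and 5 in BAT, against 10.7% and 13.3% of all genes. Ppara (-2.77), Ppargc1a (-1.998, also a brown adipocyte marker), Ppargc1b (-1.81) and Tcf15 (-1.72) were the 4 largest in iWAT, and Ppargc1b (-2.75), Ppara (-2.55), Cebpa (-1.84) and Pparg (-1.63) in BAT.

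Across the 20 libraries, each gene of the 10 was set beside all genes tested by the root mean square difference of their centred log2 CPM, a measure that also reads the group differences all libraries share. The closest genes were Syap1 for Cd36 (0.16), Pex13 for Fabp4 (0.15), Exd1 for Acsl1 (0.18), Stau2 for Vldlr (0.24), Mccc2 for Gpihbp1 (0.24), Prnp for Lpl (0.26), Gsn for Slc27a1 (0.32), Phyhd1 for Fabp5 (0.36) and Txnip for Angptl4 (0.38). Fabp3 had no gene as near, with Perm1 at 1.29 and Zic1 at 1.52. Among the 10 themselves Cd36 and Fabp4 were the closest pair (0.25), followed by Lpl and Acsl1 (0.46) and by Cd36 and Acsl1 (0.48), and Fabp3 and Slc27a1 were the farthest apart (4.92).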

How the data were processed

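RNA was measured in 20 libraries, 5 for each genotype and tissue. The submitters' processing notes name bcl2fastq 2, STAR 2.5.3a and the build mm10; the counting tool and annotation are not given in the sources used here. The authors deposited expected counts per gene and library, without normalization, and 76.6% of those above 0 are exactly whole, with no tolerance. FPKM values, also deposited, are the count divided by transcript width and by a total per library. After rounding, the counts were fitted with edgeR 4.0.16 under R 4.3.3 (filterByExpr, TMM, glmQLFit, Benjamini-Hochberg over all genes tested), within each tissue for the genotype and over all libraries for tissue and interaction. Standard errors were taken as the log2 fold change over the root of F. Depth was 24023371 to 50384446 counts per library, which sets the precision of each count. Alternatives were DESeq2 1.42.0, limma 3.58.1 on log2(FPKM + 1) and log2(FPKM + 0.1), other scalings and filters, marker scores as covariates, a replicate block and each library left out. The fits were tested on simulated data. The muscle covariate in iWAT and the fits without libraries rich in muscle or B cell markers were added after seeing the data. Members and lists were chosen with earlier results of these data known. All 10 members are named; from each list at most 4 called genes a tissue are named, by size, and 3 of them (Gm6484, Apoc1, Pcsk6) also in the other tissue, a choice made after their values were seen. A gene that this rule would name is not reported here.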

Additional observations from a re-analysis of the deposited data

Results flagged for a closer look

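Among 40 sets of 5 libraries, 1 for each gene and group, 8 had a library whose gap to the next was more than 0.71 of the whole range, which chance gives in about 1 in 20 sets. Ai-α4KO iWAT library 4 was such a library for 3 genes, with Acsl1 at 1421 CPM against 746 to 926, Fabp4 at 12843 CPM against 9588 to 9970.5 and Vldlr at 54.0 CPM against 39.9 to 42.3. Fabp3 was at 44.1 CPM in Ai-α4KO iWAT library 1 against 2.44 to 4.10 CPM, and at 11.7 CPM in Control iWAT library 4 against 0.293 to 2.49 CPM. Cd36 was at 2861 CPM in Control iWAT library 1 against 3788 to 4076, and at 5404 CPM in Control BAT library 2 against 3869 to 4198. Gpihbp1 was at 219 CPM in Control iWAT library 3 against 122 to 129.7 CPM.

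The genotype effect on Fabp5 differed between the tissues by 1.51 on the log2 scale (standard error 0.36, edgeR adjusted p = 0.00916), with means of 199 and 394 CPM in Control and Ai-α4KO BAT and 581 and 402 CPM in iWAT (n = 5 each). It was higher in 5 of 5 Ai-α4KO BAT libraries than in any Control BAT library. The call was lost in 14 of the 20 fits that left out 1 library, with adjusted p of up to 0.0195.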

How the results depend on the processing

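Of 248 counts of the 10 genes called under an alternative, 226 were within 1.5 times the value reported and 22 were not. Lpl, Gpihbp1, Vldlr, Slc27a1 and Acsl1 kept their direction and call in iWAT under all 24 alternatives, and Gpihbp1 and Acsl1 in BAT under all 21. The cause of the following changes was not tested. In iWAT Angptl4 turned to 0.14 and 0.15 with limma (pseudocounts 1 and 0.1) and to 0.0025 with the replicate block. In BAT Fabp3 turned to 0.0234 with DESeq2, 0.22 with library size, 0.0250 with upper-quartile factors, 0.0464 with at least 10 counts in every library, 0.14 with either limma fit and 0.0269 in 1 fit of 20 libraries, and ran from -0.19 to 0.18 with 1 library left out. In BAT 1 of the 10 (Fabp5) was called higher with library size, at least 10 counts, either limma fit and the muscle covariate, and 0 to 1 with 1 library left out. The interaction called 2 higher with library size, 4 with DESeq2 and 0 to 1 with 1 library left out. In Control mice 1 was higher in BAT with library size and with limma (pseudocount 1). In Ai-α4KO mice the tissue difference of Fabp5 turned to 0.0095 with DESeq2 and 0.0218 with the replicate block. Relative to the 3 markers Adipoq, Plin1 and Cidec, Angptl4 was at -0.0941 in BAT. As shares of summed CPM, Fabp4 held 96.7% in Control iWAT, and Fabp5 3.32% there, 1.202% in Control BAT and 3.02% in Ai-α4KO BAT. With 1 library left out, values near 0 changed sign: Gpihbp1 relative to adipocyte markers ran from -0.13 to 0.10 in iWAT and -0.22 to 0.0510 in BAT, Angptl4 on that scale from -0.15 to 0.27 in BAT, the interaction of Gpihbp1 from -0.19 to 0.30 and of Fabp3 from -3.43 to 0.11, and the tissue difference in Ai-α4KO mice from -0.0416 to 0.15 for Cd36, -0.11 to 0.20 for Lpl, -0.0651 to 0.39 for Fabp5 and -0.20 to 0.12 for Acsl1.

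Replicate numbers did not pair the libraries, since deviations of same-numbered libraries correlated at -0.451 to 0.244. The replicate block changed no count of the 10 genes called, for example 5 lower in iWAT and 4 in BAT. Over all genes, limma (pseudocount 1) called 779 lower in iWAT against 1559, and 807 lower in BAT against 1910. The muscle covariate called 1676 higher in BAT against 2614, and DESeq2 1257 higher in the interaction. BAT had 1265 genes lower with library size and 1205 with limma (pseudocount 0.1). The interaction had 115 lower with library size, 147 with upper-quartile factors, 391 with DESeq2 and 150 with the replicate block, and 309 to 853 higher and 93 to 264 lower with 1 library left out, against 496 higher and 244 lower. Between tissues limma (pseudocount 1) called 547 higher and 1297 lower in Control, against 1118 and 2346, and 840 higher and 351 lower in Ai-α4KO, against 1301 and 623, where 278 to 504 were lower with 1 library left out. Library size in place of TMM moved the median of all genes by 0.119 in iWAT and 0.264 in BAT.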
